A study of Homo sapiens with 6 samples.

Results

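The matrix proteoglycans described here are 9 genes taken by symbol from a table of 16934 genes: LUM, DCN, BGN, ASPN, FMOD, PRELP, VCAN, HSPG2 and CSPG4. All 9 had a row in the table, and 7 passed the filter on low counts. RNA was sequenced from A375, an established human melanoma line with an activating BRAF mutation. The cells had received CRISPR-Cas9 reagents of the Alt-R system with an sgRNA against POLK, the gene for the error-prone DNA polymerase kappa (3 libraries), or with a non-targeting control sgRNA (3 libraries). Cells of both groups thus received an sgRNA, of which only that against POLK targets a gene, and were grown in the same serum-containing medium. The study as a whole concerns the control of polymerase kappa by oncogenic signalling and its part in drug resistance. The question here is how proteoglycan transcripts differ in cells given the POLK sgRNA.

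Proteoglycans are proteins that carry long sulphated sugar chains, the glycosaminoglycans. Small leucine-rich proteoglycans such as decorin and lumican bind collagen fibrils and set their width and spacing, and several also bind growth factors and their receptors. Larger members organise hyaluronan gels (versican) or basement membranes (perlecan), and CSPG4, also known as NG2 or melanoma-associated chondroitin sulphate proteoglycan, spans the plasma membrane and is a common surface antigen of melanoma. In tissue, most decorin and lumican comes from fibroblasts.

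Totals were 46559658 to 56891905 counts in the POLK sgRNA libraries and 42852645 to 55003324 in the control sgRNA libraries. Levels are CPM, the counts of a gene per 1000000 counts of its library after TMM scaling. POLK transcripts fell to 18.2 ± 1.003 CPM (SD, n = 3) with the POLK sgRNA, against 23.3 ± 0.842 CPM (SD, n = 3) with the control sgRNA. Reads were not marked by strand, and POLK shares 230 exonic bases with the opposite-strand gene COL4A3BP, which had 18734 counts over the 6 libraries, and 754 with an antisense gene, so its level may include reads of these genes. Whether the 3 libraries of a group stem from separate cultures is not stated in the labels, and the p-values then measure only the spread among these samples, which may be technical. The count columns carry 1 name stem per group, so a difference between 2 separately treated populations and an effect of POLK editing cannot be told apart. Of the melanoma markers, SOX10 (1155 and 1060 CPM with the POLK and control sgRNA) and S100B (88.6 and 69.8 CPM) were abundant, whereas PMEL and MLANA stayed under 1 CPM in the mean of either group. TYR had 0 counts with the POLK sgRNA and 19 with the control sgRNA, all 19 in control library 1. DCT, also a pigment gene, had 64, 2 and 1 counts in the control libraries and 15, 12 and 5 in the POLK sgRNA libraries. Of 8 melanoma markers tested, 6 were higher with the POLK sgRNA and 0 lower, beside 32.8% higher among all genes tested.

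Of the 7 proteoglycan genes tested, 4 were higher with the POLK sgRNA (LUM, DCN, PRELP and CSPG4) and 2 were lower (BGN and VCAN), while HSPG2 did not pass. Among all 13930 genes tested, 64.3% passed edgeR's quasi-likelihood F test (QL test) at a Benjamini-Hochberg adjusted p under 0.05, 32.8% as higher and 31.6% as lower. The share of members that passed is read against that background. Changes of at least 2-fold were rarer. They made up 6.84% of the genes tested and included 4 members, LUM, DCN, PRELP and BGN. Of these, DCN was kept by the filter only through its POLK sgRNA libraries. Members were chosen with earlier results of these data known, so these figures do not measure an enrichment. The groups did not overlap in the 6 members that passed, and in 67.7% of all tested genes. ASPN and FMOD were close to undetected in both groups.

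Upstream sequence is shown for the 3 called members with the strongest rise, fall and level for which RefSeq gives a promoter. These are PRELP, BGN and CSPG4, and each sequence is the 250 bases before the RefSeq transcription start, read 5′ to 3′ on the gene's strand (GRCh38.p14). RefSeq promoters were matched for 7 of the 9 members. LUM and DCN are named without one. Capitals mark a GC box (GGGCGG, either strand), and a TATA box (TATAAA), an E-box (CACGTG) and an AP-1 site (TGANTCA) were also searched on both strands. The motifs shared no bases in these windows. PRELP lies on the plus strand at chr1:203475556-203475805, CSPG4 on the minus strand at chr15:75712849-75713098 and BGN on the plus strand at chrX:153494730-153494979.
PRELP: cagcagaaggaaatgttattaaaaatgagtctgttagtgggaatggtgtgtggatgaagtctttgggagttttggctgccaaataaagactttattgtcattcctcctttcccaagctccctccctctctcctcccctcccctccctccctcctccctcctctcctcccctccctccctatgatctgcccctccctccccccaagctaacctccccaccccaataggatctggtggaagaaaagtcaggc
CSPG4: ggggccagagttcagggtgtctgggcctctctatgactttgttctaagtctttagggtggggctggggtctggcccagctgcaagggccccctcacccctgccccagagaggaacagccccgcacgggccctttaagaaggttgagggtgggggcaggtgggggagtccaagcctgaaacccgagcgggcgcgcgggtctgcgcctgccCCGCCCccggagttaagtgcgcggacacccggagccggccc
BGN: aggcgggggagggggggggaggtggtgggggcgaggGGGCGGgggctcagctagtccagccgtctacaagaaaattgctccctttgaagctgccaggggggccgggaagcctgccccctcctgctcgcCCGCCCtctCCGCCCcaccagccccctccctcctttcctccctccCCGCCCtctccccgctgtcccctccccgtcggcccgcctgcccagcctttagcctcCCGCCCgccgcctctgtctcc
The BGN window held 5 GC boxes, 16 CpG dinucleotides and 74.0% G or C. GENCODE 29 starts BGN at position 153494939, inside this window. The last bases shown, with the GC box closest to the end, thus lie within the gene in that annotation. The CSPG4 window held 1 GC box and 14 CpG, and the PRELP window held none of the 4 motifs and 0 CpG at 52.8% G or C. Over all 35116 RefSeq promoters, 42.6% of such windows held a GC box, 10.7% a TATA box, 6.34% an E-box and 6.57% an AP-1 site, and the median CpG number was 11. The windows of VCAN and HSPG2 held 1 and 8 GC boxes. FMOD, with 2 GC boxes, was the matched member with a TATA box. These matches describe the letters of the windows and were not compared with the expression changes.

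Lumican, a keratan sulphate proteoglycan of collagen fibrils, was 10.5-fold higher with the POLK sgRNA. LUM (ENSG00000139329; chromosome 12, 91102629 to 91111831, minus strand, GRCh38) had 269, 216 and 205 counts in the POLK sgRNA libraries, against 17, 26 and 19 in the control sgRNA libraries. Scaled to depth, these were 4.71, 4.62 and 4.18 CPM with the POLK sgRNA, against 0.397, 0.476 and 0.396 CPM with the control sgRNA. Every POLK sgRNA library was far above every control library. The log2 fold change of 3.40 (SE 0.15) ranked 60th from the top among the 13930 genes tested, and its Benjamini-Hochberg adjusted p in edgeR's QL test was 1.12e-19. In RNA from whole cultures, more expressing cells and more RNA per cell cannot be told apart.

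Decorin, which carries a chondroitin or dermatan sulphate chain and binds TGF-beta and the receptors EGFR and MET, moved the same way. DCN (ENSG00000011465; chromosome 12, 91140484 to 91183123, minus strand) had 73, 45 and 53 counts with the POLK sgRNA, against 5, 5 and 3 with the control sgRNA. Its levels were 1.28, 0.962 and 1.08 CPM in POLK sgRNA libraries and 0.117, 0.0916 and 0.0625 CPM in control libraries, without overlap. The log2 fold change was 3.61 (SE 0.31; edgeR QL test, adjusted p = 4.13e-12), the 55th highest. All control counts lay under the filter's minimum count of 10, so DCN was kept for testing only through the POLK sgRNA libraries. Its p-value and rank are subject to that selection by the group in which it is high. The 13 control counts limit the size of this ratio, which over summed counts was 12.5 with an exact 95% interval of 7.13 to 23.98 that covers counting error only. LUM and DCN are neighbours, 37.9 kb apart by their start coordinates with no other tested gene between them.

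Genes around LUM and DCN were mostly higher too, but by less. Of the 40 tested genes nearest to LUM, 20 on each side and DCN among them, 37 were higher and 1 lower, with a median log2 fold change of 0.68. For DCN, with LUM among its neighbours, the same counts held and the median was 0.65. Both sets hold almost the same genes, so the DCN set is not a separate observation. The genes around LUM started between positions 80936414 and 95943293, so not all are close to it. The median over the 737 other tested genes of chromosome 12 was 0.50, against 0.01 over all tested genes. LUM and DCN stood 2.72 and 2.96 above the medians of their neighbours on the log2 scale. ATP2B1, a calcium pump gene and the next tested gene on the other side of LUM, reached 98.9 ± 4.71 and 75.9 ± 0.160 CPM (SD, n = 3 each; POLK and control sgRNA), and BTG1, an antiproliferative gene beyond DCN, reached 98.2 ± 0.590 and 67.4 ± 4.76 CPM. By start coordinates, ATP2B1 lay 1515 kb from LUM and BTG1 999.8 kb from DCN. Within the 40 genes around LUM, ACSS3 (log2 fold change 5.40) and USP44 (4.86) rose further than the proteoglycan genes did.

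**Figure D1:**
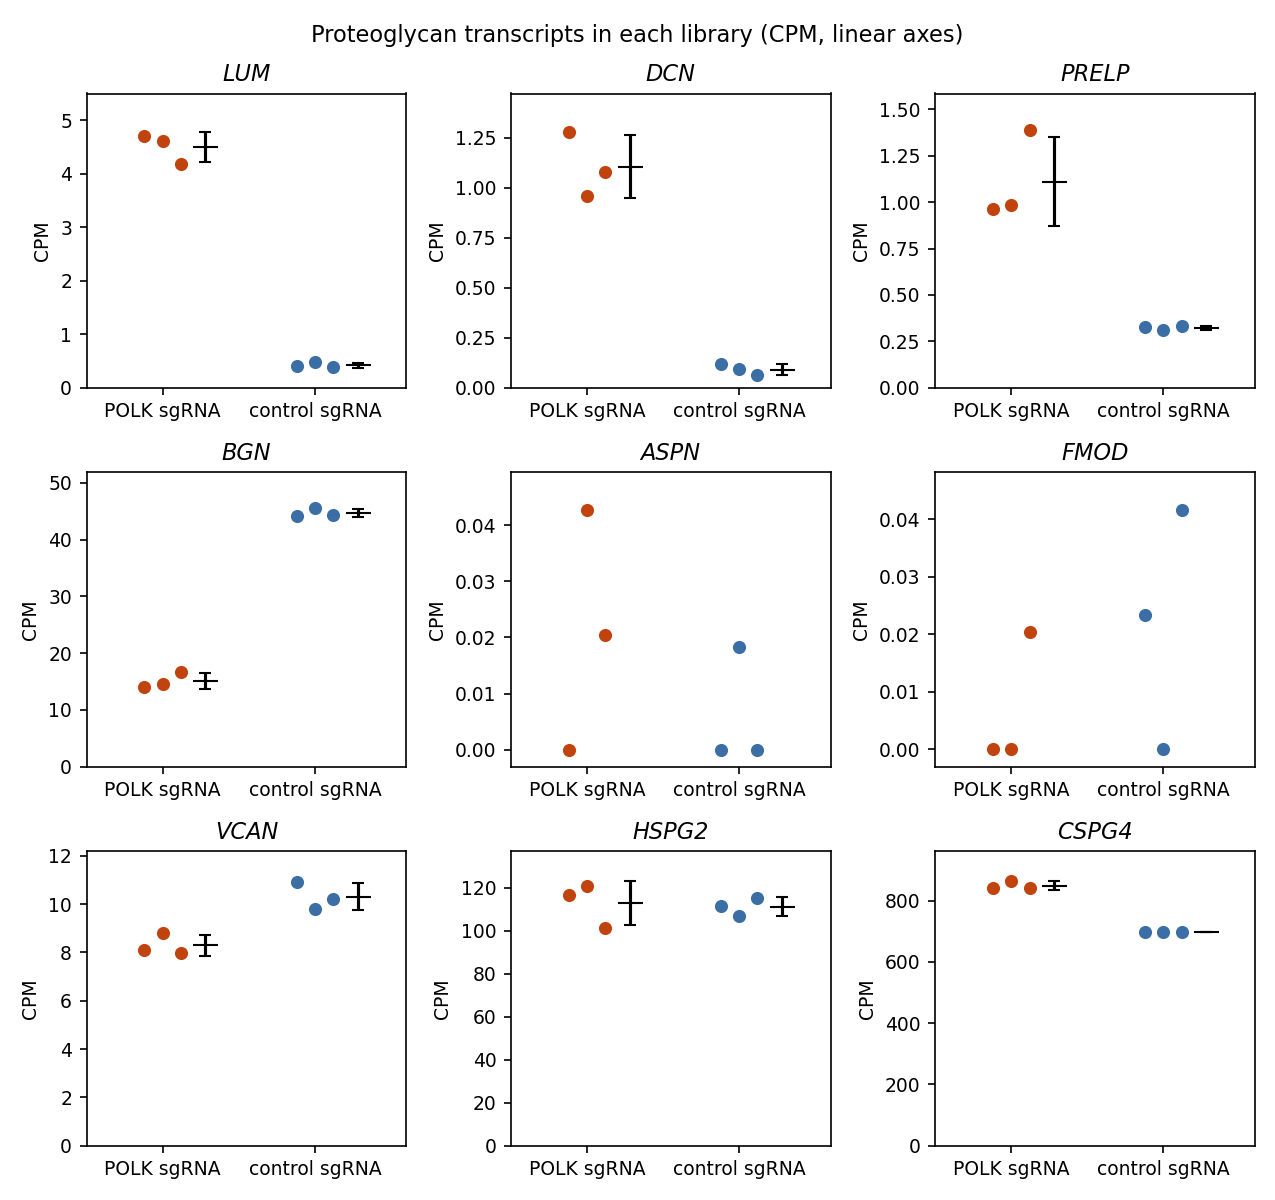
Level in each library (points, CPM; linear axes, each with its own scale) for the 9 proteoglycan genes, POLK sgRNA left and control sgRNA right; black bars show the mean and SD of 3 libraries and are left out for ASPN and FMOD. LUM, DCN and PRELP sit higher with the POLK sgRNA, BGN and VCAN lower, and the HSPG2 points of the 2 groups overlap.

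LUM and DCN are also markers of fibroblasts, so the other fibroblast markers were read beside them. Of 10 such genes, 9 were in the table and 4 were tested, of which PDGFRB rose, PDGFRA and COL1A2 fell and COL1A1 did not pass. Their summed level was 24.3 to 25.1 CPM in POLK sgRNA libraries and 20.03 to 20.2 CPM in control libraries, a difference that PDGFRB carried (16.7 and 10.6 CPM). Over 3 libraries each, COL3A1, a main collagen gene of fibroblasts, had 10 and 8 counts, POSTN 7 and 8, FAP 27 and 11, and TCF21 36 and 13 (POLK and control sgRNA), and none of the 9 markers in the table was at 0 in all 6 libraries. Summed levels of the other marker lists were also higher with the POLK sgRNA, at 5.84 to 6.27 and 3.04 to 3.99 CPM for 5 endothelial genes and at 58.1 to 60.3 and 17.6 to 18.0 CPM for 5 leukocyte genes, a leukocyte sum that is mostly CD68 and LYZ. Of the endothelial genes 4 rose, but CDH5, the endothelial cadherin gene, fell to 1, 4 and 0 counts in the POLK sgRNA libraries, against 18, 18 and 16 in the control libraries. Of the leukocyte genes, CD14, a monocyte marker, fell to 0.0917 ± 0.00905 CPM, against 0.354 ± 0.0579 CPM, while CD68 and LYZ rose. The pan-leukocyte gene PTPRC had 5 and 4 counts, and the T cell gene CD3E had 1 and 2 counts (POLK and control sgRNA). The 3 keratinocyte genes in the table summed to 99.8 to 104 and 82.5 to 86.4 CPM, most of it KRT10. The part of other cell types in the changes of LUM and DCN was not tested.

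PRELP, a leucine-rich protein with a heparin-binding end that links basement membranes to collagen, was 3.40-fold higher. PRELP (ENSG00000188783; chromosome 1, 203475828 to 203491352, plus strand) had 55, 46 and 68 counts with the POLK sgRNA, or 0.963, 0.983 and 1.39 CPM, against 14, 17 and 16 counts with the control sgRNA, or 0.327, 0.311 and 0.333 CPM. The control libraries lay close together and the POLK sgRNA libraries were more spread, with library 3 the highest. The log2 fold change was 1.77 (SE 0.24; edgeR QL test, adjusted p = 7.64e-08). Of its 40 nearest tested genes 19 were higher and 5 lower, with a median of 0.08. Nearby, ATP2B4 rose (log2 fold change 0.46) and BTG2 fell (−0.28).

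FMOD and ASPN held too few counts to test. Fibromodulin, a keratan sulphate proteoglycan encoded by FMOD next to PRELP (ENSG00000122176; chromosome 1, 203340628 to 203351758, minus strand), had 0, 0 and 1 counts in the POLK sgRNA libraries and 1, 0 and 2 in the control libraries. Over summed counts the ratio was 0.317, with an exact 95% counting interval of 0.00604 to 3.95. Asporin, a relative of decorin that binds TGF-beta, had 0, 2 and 1 counts in the POLK sgRNA libraries and 0, 1 and 0 in the control libraries (ASPN, ENSG00000106819; chromosome 9, 92456205 to 92482506, minus strand), a ratio of 2.85 with an interval of 0.229 to 149.8. Neither interval excludes an equal level, and no difference was detectable at this depth. ECM2, the next tested gene to ASPN and itself a relative of the family, rose to 1.12 ± 0.109 CPM with the POLK sgRNA, against 0.741 ± 0.0705 CPM with the control sgRNA (log2 fold change 0.61, SE 0.19).

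Biglycan went the other way. This close relative of decorin, which carries chondroitin or dermatan sulphate chains and can signal through TLR2 and TLR4, fell to 33.7% of its control level. BGN (ENSG00000182492; chromosome X, 153494939 to 153509554, plus strand) had 14.1, 14.6 and 16.6 CPM in the POLK sgRNA libraries, from 803, 682 and 814 counts, against 44.1, 45.5 and 44.4 CPM in the control sgRNA libraries, from 1890, 2485 and 2131 counts. The groups were far apart and the libraries within each were close. The log2 fold change was −1.57 (SE 0.05; edgeR QL test, adjusted p = 1.67e-23), the 231st lowest among the genes tested. Of its 40 nearest tested genes 25 were lower and 9 higher, with a median log2 fold change of −0.16 and a range of −1.39 to 5.84, so BGN fell further than each of them. HAUS7, on 1 side, fell (0.261 ± 0.0503 and 0.541 ± 0.0569 CPM with the POLK and control sgRNA), and FAM58A, on the other, fell by 0.20 on the log2 scale. Of the receptors named here, TLR4 was at 69.7 ± 3.49 and 70.0 ± 3.06 CPM and did not pass, and TLR2, at 0.175, 0.299 and 0.204 CPM with the POLK sgRNA, against 0.397, 0.256 and 0.521 CPM with the control sgRNA, fell (log2 fold change −0.79, SE 0.34; edgeR QL test, adjusted p = 0.0446). The TLR2 groups overlapped.

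The 6 small leucine-rich members together summed to 21.0, 21.2 and 23.3 CPM with the POLK sgRNA, against 45.0, 46.4 and 45.2 CPM with the control sgRNA. Without BGN the other 5 summed to 6.95, 6.60 and 6.70 CPM, against 0.864, 0.897 and 0.833 CPM. The sum thus followed BGN, while LUM, DCN and PRELP moved the opposite way.

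**Figure D2:**
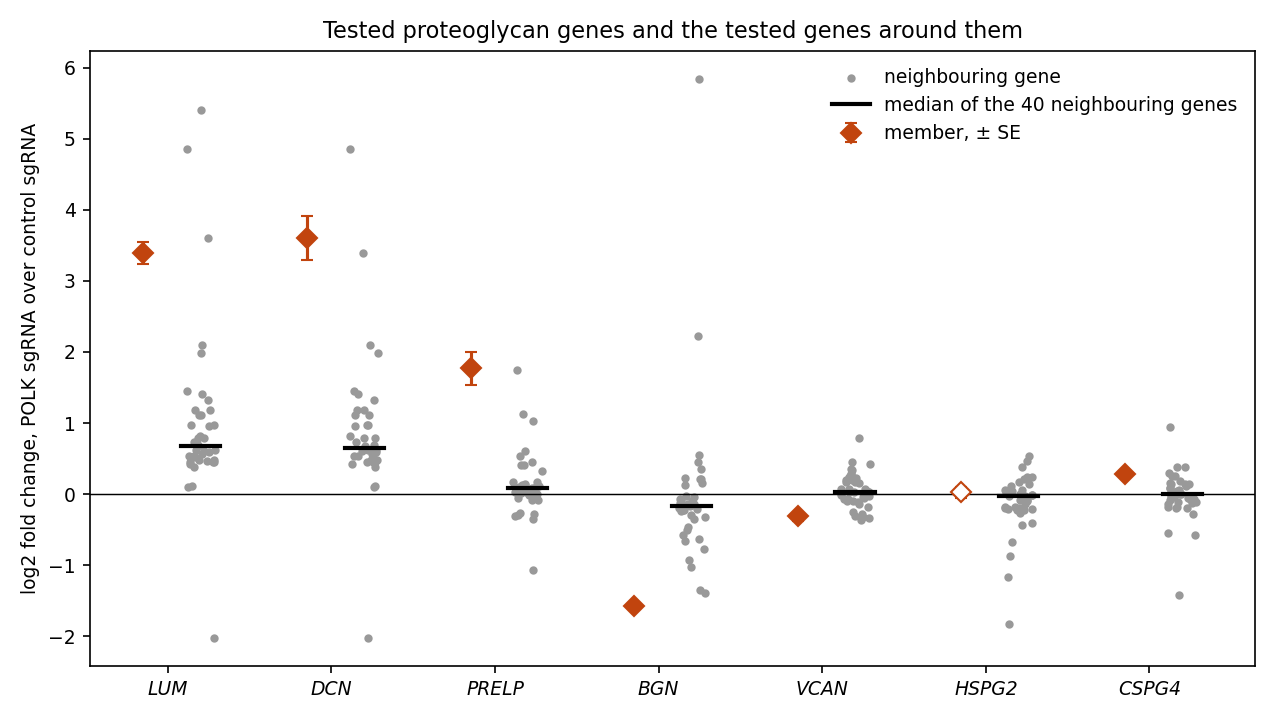
Log2 fold change (POLK sgRNA over control sgRNA) of the 7 tested proteoglycan genes (diamonds, with SE; filled where the adjusted p is under 0.05) beside the 40 nearest tested genes on the same chromosome (grey points) and their median (black line). Neighbours of LUM and DCN sit mostly above 0 with medians of 0.68 and 0.65, and BGN lies below all of its neighbours.

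Versican, a large chondroitin sulphate proteoglycan that binds hyaluronan, was modestly lower. VCAN (ENSG00000038427; chromosome 5, 83471465 to 83582303, plus strand) had 8.10, 8.80 and 7.96 CPM with the POLK sgRNA, against 10.9, 9.80 and 10.2 CPM with the control sgRNA. Every POLK sgRNA library lay below every control library. Its level was 80.5% of the control level (log2 fold change −0.31, SE 0.07; edgeR QL test, adjusted p = 0.000123). HAPLN1, which encodes the link protein that locks such proteoglycans onto hyaluronan and lies beside VCAN, fell by a similar log2 fold change of −0.28 (SE 0.03), at 225 ± 5.81 and 273 ± 8.73 CPM. XRCC4, on the other side, did not pass, and the median of the 40 nearest tested genes was 0.03.

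Perlecan, the large heparan sulphate proteoglycan of basement membranes, did not pass the test. HSPG2 (ENSG00000142798; chromosome 1, 21822245 to 21937297, minus strand) had 116.6, 120.9 and 101.2 CPM with the POLK sgRNA, against 111.4, 106.6 and 115.3 CPM with the control sgRNA. The groups overlapped, with POLK sgRNA library 3 the lowest of all. The log2 fold change was 0.02 with a 95% interval of −0.19 to 0.24 (edgeR QL test, adjusted p = 0.811). Without POLK sgRNA library 3, HSPG2 passed as higher, with a log2 fold change of 0.10 and, by the same edgeR test, an adjusted p of 0.00511. Its neighbours USP48 and CDC42 did not pass either. A protein that perlecan binds in basement membranes, nidogen 1, changed strongly, and NID1 reached 428 ± 11.5 CPM with the POLK sgRNA, against 179 ± 5.35 CPM with the control sgRNA (log2 fold change 1.26, SE 0.03).

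CSPG4 was the most abundant member and was 1.22-fold higher. CSPG4 (ENSG00000173546; chromosome 15, 75674322 to 75712848, minus strand) had 840.7, 864.4 and 841.8 CPM with the POLK sgRNA, against 696.9, 696.0 and 698.7 CPM with the control sgRNA. The small difference far exceeded the spread between libraries (log2 fold change 0.28, SE 0.02; edgeR QL test, adjusted p = 9.0e-14). The next tested genes, SNX33 and UBE2Q2, did not pass, and the 40 nearest had a median log2 fold change of 0.0026. GENCODE 29 lists 9 pseudogenes of CSPG4, of which 0 are in the table, so reads of near-identical copies may be included and its level is uncertain to that extent. Antisense or opposite-strand genes share 453 exonic bases with VCAN, 563 with CSPG4 and 2121 with HSPG2. The last, LDLRAD2, has 51 counts over the 6 libraries.

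Per kilobase of the longest principal transcript in GENCODE 29, the order of levels with the POLK sgRNA was CSPG4 (102.4 ± 1.62 CPM per kb), HSPG2 (7.88 ± 0.722), BGN (6.28 ± 0.564), LUM (1.497 ± 0.0929), VCAN (0.657 ± 0.0358), PRELP (0.193 ± 0.0418) and DCN (0.155 ± 0.0223). With the control sgRNA it was CSPG4 (84.1 ± 0.169), BGN (18.6 ± 0.308), HSPG2 (7.75 ± 0.307), VCAN (0.817 ± 0.0452), LUM (0.141 ± 0.0153), PRELP (0.0563 ± 0.00196) and DCN (0.0126 ± 0.00379 CPM per kb). PRELP and DCN did not differ beyond their spread with the POLK sgRNA. LUM stood above VCAN with the POLK sgRNA and below it with the control sgRNA, and HSPG2 and BGN likewise exchanged places. With the length of all annotated exons in place of the transcript, HSPG2 and BGN were 6.24 and 6.15 CPM per kb with the POLK sgRNA, within their spread. CSPG4 made up 86.0% of the summed level per kb with the POLK sgRNA and 75.4% with the control sgRNA. DCN has 3 principal transcripts, and with the shortest of them its level was 0.574 and 0.0468 CPM per kb, above PRELP in the POLK sgRNA libraries.

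**Figure D3:**
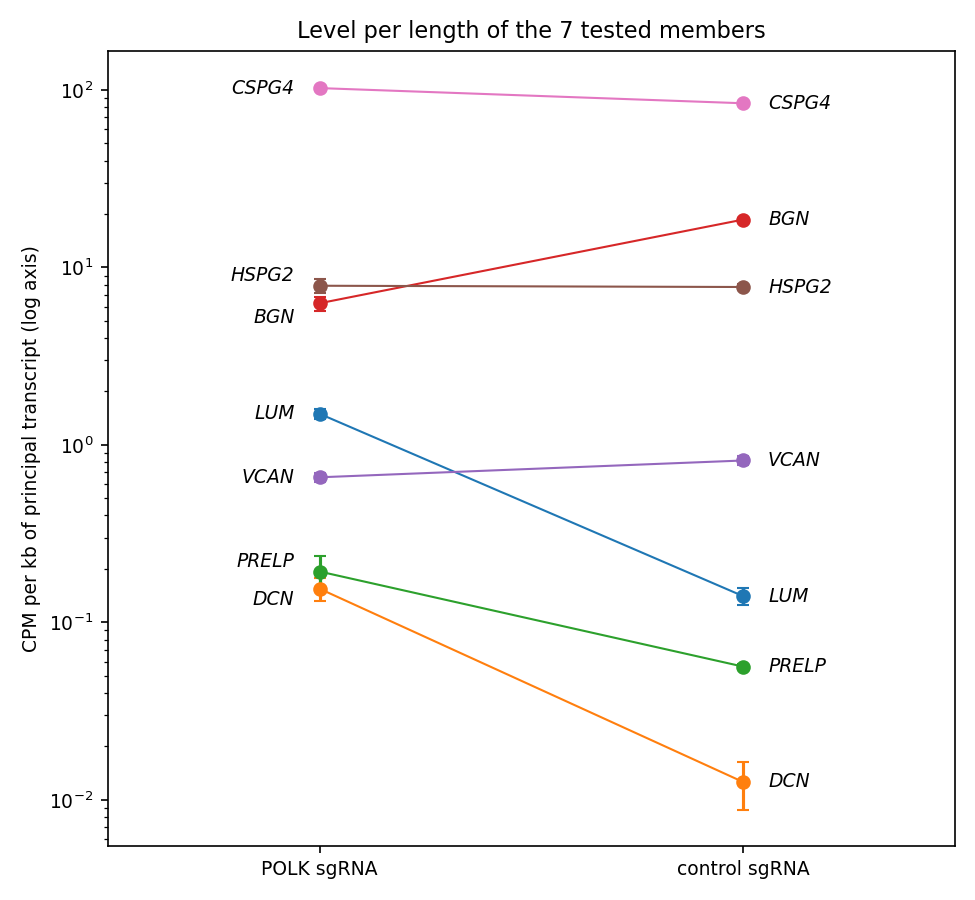
Mean level per kilobase of transcript (log axis; bars show the SD of 3 libraries) of the 7 tested proteoglycan genes with the POLK sgRNA (left) and the control sgRNA (right), joined by gene. The lines of LUM and VCAN cross, as do those of BGN and HSPG2.

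By their profile over the 6 libraries, the tested genes of at least 1 CPM most like each member were ABCA6 and OAS1 for LUM (Euclidean distances of 0.303 and 0.310 between centred log2 levels) and GIMAP2 and LYZ for DCN (0.323 and 0.397). For PRELP they were CYP27A1 and CAPS2 (0.257 and 0.269), for BGN C19orf71 (0.129), for VCAN PAG1 and MSI1 (0.0637 and 0.0820), for HSPG2 MKI67 and PLCD4 (0.0612 and 0.0679) and for CSPG4 PCDHB6 and STARD3 (0.0218 and 0.0248). The measure adds 0.1 CPM to each level, more than the DCN control mean of 0.0903 CPM, which narrows the DCN difference. LYZ was thus named for DCN although their log2 fold changes were 2.53 and 3.61. DCN and PRELP, under 1 CPM in the mean, could not be named for other members. Of the genes named by likeness, OAS1, LYZ, CAPS2 and MSI1 lie on chromosome 12, as LUM and DCN do, and the others lie elsewhere. The part of chromosome 12 in the likeness was not tested.

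The enzymes that build the sugar chains were read from lists. Counts in these and the later lists stand beside 32.8% higher and 31.6% lower among all genes tested. The lists were chosen with earlier results of these data known, so their counts do not measure an enrichment. The linker list showed the strongest change at its first step. XYLT1, which encodes a xylosyltransferase that starts chondroitin and heparan sulphate chains on the core protein, fell to 3.55, 4.08 and 3.90 CPM in the POLK sgRNA libraries, against 58.6, 61.1 and 61.0 CPM in the control libraries. The groups were widely apart, with a log2 fold change of −3.98 (SE 0.05; edgeR QL test, adjusted p = 1.23e-34). Its relative XYLT2, which catalyses the same step, rose to 58.8 ± 1.07 CPM, against 47.3 ± 0.474 CPM. PAPSS2, which makes the sulphate donor, fell to 40.6 ± 0.436 CPM, against 94.3 ± 4.05 CPM, and the sulphate transporter gene SLC26A2 to 606 ± 12.9 CPM, against 729 ± 21.5 CPM. Of the 16 genes in this list, all tested, 4 rose, 7 fell and 5 did not pass, and their median log2 fold change was 0.01, beside 0.01 over all genes tested.

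Of 16 genes for chondroitin and dermatan sulphate, 15 were tested, 4 rose and 8 fell, at a median log2 fold change of −0.11. DSEL, a gene for an epimerase that turns chondroitin into dermatan sulphate, rose to 11.1, 10.9 and 10.9 CPM with the POLK sgRNA, against 3.17, 3.08 and 3.50 CPM with the control sgRNA. CHSY3, a chain polymerase gene, fell to 0.816 ± 0.101 CPM, against 5.55 ± 0.478 CPM, and CHST15, a sulphotransferase gene, to 0.283 ± 0.0185 CPM, against 2.10 ± 0.196 CPM. CHST11, a sulphotransferase gene on chromosome 12, rose to 75.5 ± 1.56 CPM, against 56.3 ± 1.17 CPM. The 2 groups did not overlap in any of these 4 genes.

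Of 24 heparan sulphate genes, 19 were tested, 3 rose and 10 fell, with a median of −0.12, beside 32.8% higher and 31.6% lower among all genes tested. SULF2, which removes sulphate groups outside the cell, fell to 99.98 ± 2.71 CPM, against 180 ± 2.30 CPM, and EXT1, a subunit of the chain polymerase, to 47.5 ± 1.21 CPM, against 73.1 ± 0.877 CPM. HS6ST1, a sulphotransferase gene, fell by 0.49 on the log2 scale (SE 0.04). HS3ST3A1, another sulphotransferase gene, rose to 25.5 ± 1.13 CPM, against 13.0 ± 0.353 CPM, and may share reads with its close copy HS3ST3B1. All 7 tested genes for keratan sulphate passed, of 9 listed. B4GALT1 and CHST6 were among 4 that rose, with log2 fold changes of 0.40 and 0.43, and B3GNT7 and CHST2 among 3 that fell, with −0.63 and −0.35.

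Among other hyalectans and hyaluronan genes, 10 fell and 1 rose of 15 tested (19 listed), with a median of −0.19. Among all genes tested, 31.6% were lower and 32.8% higher. ACAN, the gene for aggrecan, the hyalectan of cartilage, fell to 6.76 ± 0.612 CPM with the POLK sgRNA, against 25.1 ± 0.468 CPM with the control sgRNA (log2 fold change −1.89, SE 0.06). HMMR, a hyaluronan receptor gene that is also active in mitosis, fell to 73.4 ± 2.05 CPM, against 94.5 ± 3.74 CPM, and the link protein gene HAPLN4 to 0.910 ± 0.124 CPM, against 2.17 ± 0.182 CPM. With HAPLN1 above, these are the 4 of the list with the smallest p. Of the ADAMTS family genes listed here as hyalectan proteases, 5 of 7 tested fell. ADAMTS1 fell to 4.64 ± 0.297 CPM, against 17.6 ± 1.56 CPM, ADAMTS16 to 7.28 ± 0.518 CPM, against 20.3 ± 1.49 CPM, and ADAMTS9 to 7.98 ± 0.287 CPM, against 16.4 ± 0.975 CPM, while TIMP3, a gene for their matrix-bound inhibitor, rose to 958 ± 13.2 CPM, against 672.5 ± 19.3 CPM. Over this list of 9, with TIMP3 included, 8 were tested, 2 rose and 5 fell, and the median was −1.02.

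Among 20 other proteoglycans of the cell surface, basement membrane and secretions, 19 were tested, 5 rose and 9 fell, with a median of −0.002. The syndecan genes SDC2 and SDC3 fell to 30.8 ± 0.176 and 308 ± 3.11 CPM with the POLK sgRNA, against 61.6 ± 2.42 and 446 ± 8.74 CPM with the control sgRNA. GPC6, a glypican gene, and ESM1, which encodes the secreted dermatan sulphate proteoglycan endocan, fell by 0.67 and 2.72 on the log2 scale. Of 11 other small leucine-rich proteoglycans and relatives, 3 were tested. ECM2 rose, TSKU fell to 30.9 ± 0.178 CPM, against 36.3 ± 1.14 CPM, and PODNL1 had 0.256 and 0.404 CPM and did not pass. OGN and OMD, which lie near ASPN, had 4 and 3 counts and 3 and 4 counts over 3 libraries (POLK and control sgRNA).

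Of 20 genes for proteins that bind these proteoglycans, 17 were tested, 5 rose and 8 fell, with a median of −0.17. Besides NID1, PDGFRB, a growth factor receptor gene whose protein associates with CSPG4, rose to 16.7 ± 0.657 CPM, against 10.6 ± 1.07 CPM. The matrix genes FBLN1 and FBN1 fell to 8.06 ± 0.530 and 46.2 ± 1.17 CPM, against 15.8 ± 0.585 and 57.97 ± 2.87 CPM. FN1, the fibronectin gene, named here after its value was seen, fell to 39.9 ± 2.20 CPM, against 176 ± 11.6 CPM. Of the receptors that bind decorin, EGFR fell to 10.0 ± 0.260 CPM, against 13.8 ± 0.393 CPM, and MET, at 82.2 ± 2.05 and 80.7 ± 2.21 CPM, did not pass. Across these lists 66.7 to 100% of the tested genes passed, beside 64.3% of all genes tested.

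**Figure D4:**
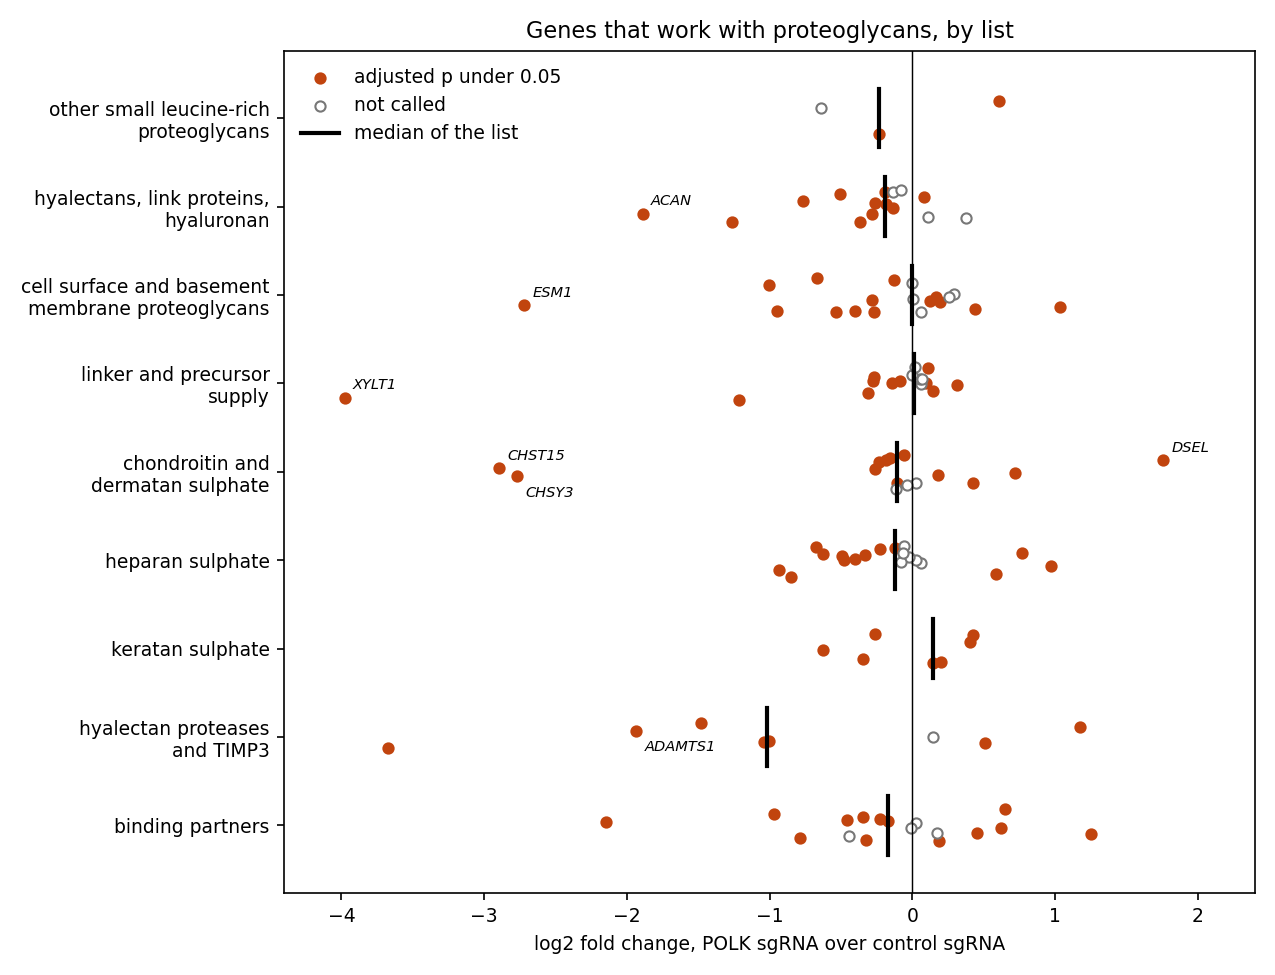
Log2 fold change (POLK sgRNA over control sgRNA) of each tested gene in 9 lists of genes that work with proteoglycans; filled points passed edgeR's QL test at an adjusted p under 0.05, and black lines are list medians. XYLT1 lies furthest to the left at −3.98 and DSEL furthest to the right at 1.76.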

How the data were processed

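RNA was measured in 6 libraries of A375 cells, grouped by the sgRNA in the labels. The submitters' processing notes name STAR, Trimmomatic, FastQC, DESeq2 and the build GRCh38. How reads were counted, and on which annotation, is not given in the sources. Libraries were made with the TruSeq RNA V2 kit, per the labels' protocols, which does not mark strand. The authors deposited raw gene counts as 1 table of whole numbers, without normalization.

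The fit covered the whole table in R 4.3.3 with edgeR 4.0.16: filterByExpr (minimum count 10, minimum total 15) kept 13930 genes (82.3%), TMM factors were 0.991 to 1.007, and the robust quasi-likelihood test was two-sided, with Benjamini-Hochberg adjustment over all tested genes. The fit was also run on simulated data in which few genes changed and all shared a common dispersion, a setting that differs from these data. A standard error is the size of the log2 fold change divided by the root of F, and intervals use the t quantile at the fit's degrees of freedom. Positions came from GENCODE 29, promoters from RefSeq. The likeness measure used log2(CPM + 0.1). Alternatives were other scalings and filters, limma-voom (3.58.1), DESeq2 1.42.0, a block on the replicate number and each library left out.

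Members and lists were chosen with earlier results of these data known. Named genes are the 9 members, POLK, the nearest tested gene on each side, the 2 most alike (1 of those for BGN is not reported here), and the 4 with the smallest p in each list. Other genes named in the text, such as FN1, EGFR, MET, TLR2, TLR4, CDH5, CD14, OGN, OMD, USP44 and ACSS3, were chosen after their values were seen. Libraries of a group differed by more than sampling noise (chi-square per degree of freedom 1.95 to 3.90).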

Additional observations from a re-analysis of the deposited data

How the results depend on the processing

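Over the alternatives run, LUM, DCN, PRELP, BGN, VCAN, CSPG4 and POLK kept direction and call wherever they were tested, with log2 fold changes of 3.34 to 3.50, 3.41 to 3.79, 1.58 to 1.87, −1.64 to −1.52, −0.35 to −0.28, 0.27 to 0.30 and −0.40 to −0.32. HSPG2 ranged from −0.025 to 0.097 on leaving out 1 library: it turned to −0.025 without POLK sgRNA library 2 (adjusted p = 0.764, edgeR) and to −0.0088 without control library 2 (adjusted p = 0.947, edgeR), and passed without POLK sgRNA library 3. The cause was not tested. With the replicate number as a block, HSPG2 was 0.02 and 6 members passed, and 8773 genes were called in place of 8962; no member changed its call. Deviations from the group means gave an r of −0.04 to 0.01 between same-numbered libraries and −0.03 to 0.05 between differently numbered ones. This showed no sign of pairing, but with 3 libraries per group it cannot exclude a pairing. Other settings gave 8080 (DESeq2) to 9229 (no filter) called genes. A mean of at least 1 CPM removed DCN and PRELP from the test, leaving 5 tested members of which 4 passed, and left 1 called gene among the other small leucine-rich proteoglycans in place of 2, since 1 was then tested. That list ranged from 2 to 3 on leaving out a library. On leaving out a library, the ratio was 1.37 to 4.56 for ASPN and 0.198 to 0.637 for FMOD, and it could not be had where a group was left at 0. Depth limits DCN, PRELP, ASPN and FMOD.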
